A study of Mus musculus with 4 samples.

Results

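H3K36me3, trimethylation of lysine 36 of histone H3, was examined over 10 genes that encode regulators of neural alternative splicing: Ptbp1, Ptbp2, Nova1, Nova2, Rbfox1, Rbfox2, Srrm2, Srrm4, Celf1 and Mbnl1. Forebrain tissue of embryonic day 13 mice, labelled as neural progenitor cells, was used for ChIP-seq, which sequences the DNA pulled down with an antibody to the mark. One genotype was wild type (WT) and the other, labelled H2A.z1cKO (here cKO), lacked the histone variant H2A.z1 in the brain. Both were on the C57BL/6 strain background. The Cre driver of the deletion and the number of embryos behind each library are not given in the sources used here. Each genotype had 1 ChIP library and 1 input library, so the values below compare 2 ChIP libraries, and no test between genotypes was possible. The headers name the cKO control as if it joined 2 inputs, while the labels list 1. Peaks were chosen where the authors' annotation named 1 of the 10 genes and did not class the peak as intergenic. This gave 25 of the 36820 WT peaks and 55 of the 95750 cKO peaks, in 8 of the 10 genes in each library. A further 11 WT and 29 cKO peaks lay over these genes but carried another gene's name, so each gene is also described by every peak over its RefSeq span.

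H3K36me3 is deposited by SETD2, which travels with elongating RNA polymerase II, and it accumulates over the bodies of transcribed genes, usually away from the promoter and toward the 3' end. Neural alternative splicing depends on RNA-binding proteins that turn exons on or off in cell-type-specific programmes. PTBP1 represses neural exons in progenitors, and its paralogue PTBP2 takes over in young neurons. NOVA, RBFOX, CELF and MBNL proteins read short RNA motifs beside exons, and SRRM4 promotes the inclusion of neural microexons. H3K36me3 has itself been linked to PTBP1-dependent splicing through the adaptor MRG15.

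Both libraries were sequenced to a similar depth (31984670 WT and 32927164 cKO ChIP tags), but the cKO list held more and wider peaks, with a median width of 436 bp against 271 bp and 69.1 Mb covered against 13.3 Mb. Coverage below is the share of a gene span inside peaks, and it rises with the number and width of peaks called in a library. The peak caller used fragments of 152 bp for WT and 185 bp for cKO, with genome backgrounds of 2.60 and 3.26 tags. Tags at a summit and peak widths are therefore not on 1 scale in the 2 libraries. Of 8 neural progenitor marker genes, 5 carried a peak in WT and 7 in cKO, while Fabp7 had none in either. Of 7 neuronal marker genes, 2 were marked in WT (Tubb3 and Map2) and 3 in cKO (also Stmn2). None of the 4 endothelial and 4 mesenchymal marker genes had a peak, and Csf1r (7.02% in cKO) was the 1 gene marked among 4 of microglia and blood. Beside these counts, 38% of all protein-coding genes of at least 5 kb were marked in WT, 52.1% in cKO and 47.4% in neither. The 3 progenitor genes that differed most were Vim (23.2% in WT and 55.1% in cKO), Hes5 (13.7% and 42.8%) and Pax6 (5.67% and 18.8%), while Nes had 26.6% and 31.4% and Sox2 19.4% and 25.2%. The median difference was 8.99 points over the 4 progenitor genes of at least 5 kb and 0.198 points over the 6 such neuronal genes. Among the latter, Tubb3 had 27.6% and 38.7%, while Dcx, Snap25 and Syt1 had no peak in either library. Over all genes of at least 5 kb the median difference was 0.361 points, and over those marked in at least 1 library it was 16.4 points. The part of cell composition in the results below was not tested. ChIP on a cell population cannot tell fewer cells with the mark from less of the mark per cell.

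No peak of either library overlapped a promoter window (250 bases before to 50 after a start site) of the 9 genes that have one in the RefSeq table for GRCm38.p6. Over all 32851 windows of that table, 0.338% held WT peak sequence and 1.26% held cKO peak sequence. The 250 bases upstream of the start site are shown for the 3 genes whose listed start is also the edge of the gene span. These genes cover the range of marking, from Ptbp1 (broadly marked) through Nova2 (sparsely marked) to Rbfox1 (no peak). Sequences run 5' to 3' on the sense strand with CG dinucleotides, the sites of mammalian DNA methylation, in capitals. The motif CG reads the same on both strands and does not overlap itself.
Ptbp1: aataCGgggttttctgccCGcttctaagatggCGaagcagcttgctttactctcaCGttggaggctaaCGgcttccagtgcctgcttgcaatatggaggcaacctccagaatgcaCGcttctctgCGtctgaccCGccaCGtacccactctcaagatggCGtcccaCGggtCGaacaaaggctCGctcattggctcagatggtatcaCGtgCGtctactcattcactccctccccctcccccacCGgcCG
Nova2: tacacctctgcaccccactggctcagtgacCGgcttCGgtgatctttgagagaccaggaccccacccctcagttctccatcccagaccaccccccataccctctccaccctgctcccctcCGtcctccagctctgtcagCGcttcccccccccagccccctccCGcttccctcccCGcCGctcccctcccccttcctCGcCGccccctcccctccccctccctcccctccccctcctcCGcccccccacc
Rbfox1: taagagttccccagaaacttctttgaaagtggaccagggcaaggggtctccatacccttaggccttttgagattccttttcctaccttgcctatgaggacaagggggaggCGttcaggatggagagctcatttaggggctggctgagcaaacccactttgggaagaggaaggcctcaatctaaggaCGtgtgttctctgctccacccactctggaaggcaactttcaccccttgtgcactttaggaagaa
The Ptbp1 stretch lies at chr10:79854182-79854431, that of Nova2 at chr7:18925638-18925887 and that of Rbfox1 at chr16:5884543-5884792, all on the plus strand. They hold 17, 10 and 2 CG dinucleotides. The full windows of 300 bases hold 22, 17 and 3, counts reached by 23.1%, 31.4% and 76.7% of all windows. A second Rbfox1 window, further inside the gene, holds 7 CG dinucleotides, reached by 52.1% of windows. Mbnl1 also had no peak in either library, and its second listed window held 41 CG dinucleotides, a count reached by 3.46% of windows, while its other window held 2. Of the other genes not shown, the windows of Ptbp2, Celf1 and Srrm4 held 36, 34 and 25. Those of Srrm2 held 30 and 33 and that of Nova1 held 14. The CG counts of the windows therefore did not follow the order of coverage.

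Across the 10 genes, 8 carried a peak in both libraries and 2 (Rbfox1 and Mbnl1) in neither. Among all 16853 protein-coding genes of at least 5 kb, 38% were marked in WT, 52.1% in cKO and 47.4% in neither. By the rule that coverage must differ by at least 10 percentage points, Ptbp1, Srrm2 and Celf1 were higher in cKO (3 of 10, beside 32.6% of all genes) and none was lower (beside 0% of all genes). The share of the 10 genes called is near that of all genes. Also 3 of 10 were called higher with a −log10 q of at least 5 (beside 32.3% of all genes, with 0.00593% lower), with a fold of at least 4 (30.2%, with 0.00593% lower), with the cKO list held to the number of WT peaks (22.1%, with 0.0297% lower) and with peaks within 3 kb joined (35.8%, with 0.0356% lower). With named peaks alone 2 of 10 were called higher (beside 24.1%, with 0.113% lower), and with spans begun at the earliest listed start site 3 of 10 (beside 32.8%, with 0% lower). With joined peaks the called genes were Ptbp2, Rbfox2 and Celf1. With the cKO list held to the covered length of the WT list, 0 of 10 were called higher (beside 4.81%) or lower (beside 2.21%). The median coverage of the 10 genes was 0.791% in WT and 4.07% in cKO, with a median difference of 3.42 points, against 0%, 0.439% and 0.361 points over all genes. The 8873 genes marked in at least 1 library had medians of 1.81%, 19.3% and 16.4 points. Together the 10 genes had 21.6 kb inside WT peaks and 56.4 kb inside cKO peaks, a ratio of 2.61, beside 5.18 for all peaks. Most of the WT bases lay in Ptbp1 (5118 bp) and Srrm2 (10575 bp), whose own ratios were 1.441 and 1.498. The ratio was 5.02 in Ptbp2, 5.05 in Nova2, 7.37 in Rbfox2, 15.4 in Srrm4 and 6.86 in Celf1, but 0.639 in Nova1. The pooled ratio therefore mainly reflects the 2 broadly marked genes.

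**Figure D1:**
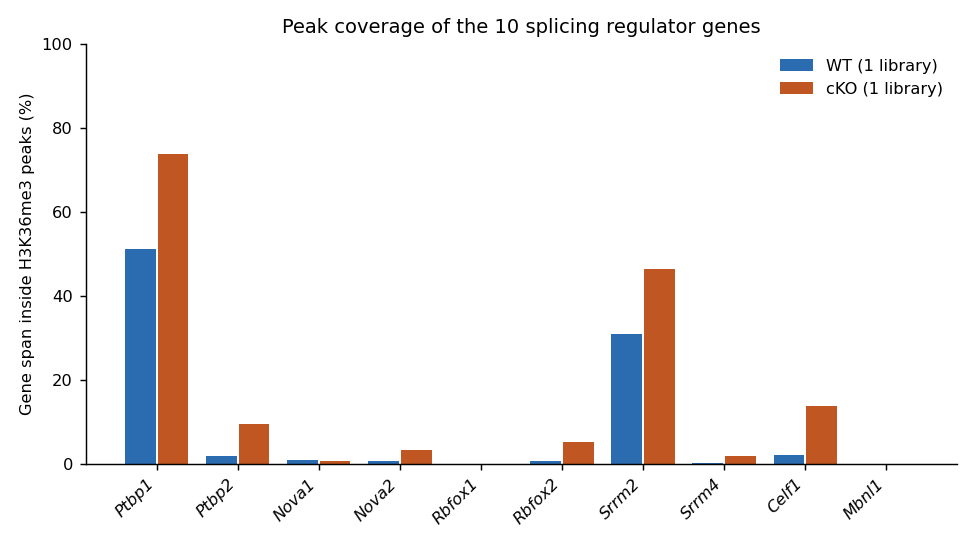
Share of each gene span inside H3K36me3 peaks (%), with 1 bar per ChIP library and no error bars, since each genotype had 1 library. Ptbp1 and Srrm2 stand highest in both libraries (51.2% and 30.9% in WT, 73.7% and 46.3% in cKO), and Rbfox1 and Mbnl1 are at 0.

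The genes differed widely in length, from 10.0 kb (Ptbp1) to 1528 kb (Rbfox1), with a median of 100.4 kb beside 25.8 kb for all genes of at least 5 kb. The 3 genes called higher were all among the 5 members shorter than 100 kb. None of the 5 longer members (Nova1, Rbfox1, Rbfox2, Srrm4 and Mbnl1) was called. Over all genes, 36.6% of those of 5 to 100 kb and 8.81% of the longer ones were called higher, a split by length chosen after the values were seen.

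**Figure D2:**
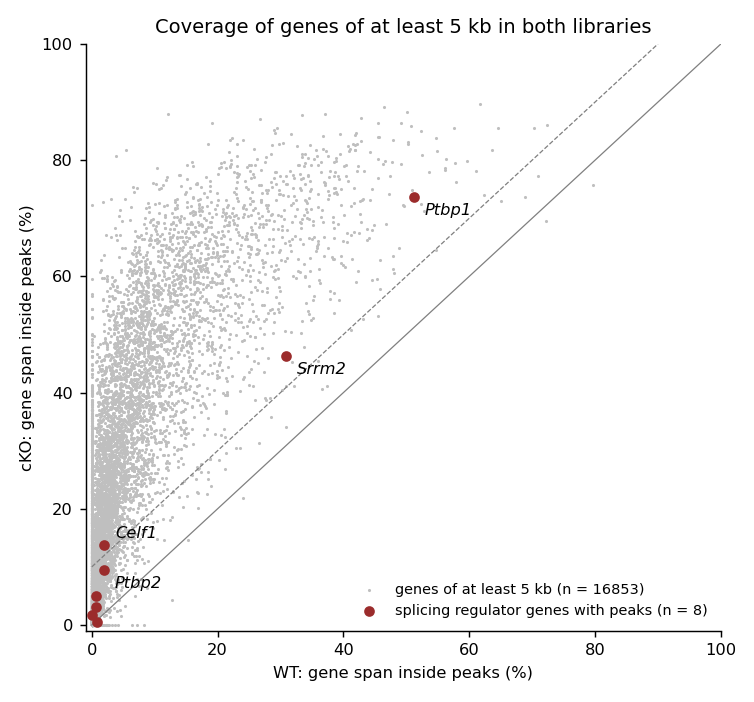
Coverage in WT (x axis, %) against cKO (y axis, %) for 16853 genes of at least 5 kb (grey) and the 8 splicing regulator genes with peaks (red). The solid line marks equal coverage and the dashed line a difference of 10 points, and Ptbp1, Srrm2 and Celf1 lie above the dashed line.

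Ptbp1 (chromosome 10, 79854432 to 79864435, plus strand), the repressor of neural exons in progenitors, was the most completely marked of the 10 genes. Its 5 WT peaks covered 51.2% of the gene, the 28th highest coverage of the 16853 genes, and only 0.196% of genes passed 50% in WT. In cKO 2 peaks covered 73.7%, rank 235, with 9.23% of genes above 50%. The largest WT peak was 2856 bp wide and began 4.40 kb from the start site, with a −log10 q (the peak caller's significance adjusted for multiple testing, higher meaning stronger) of 28.7, higher than 99.6% of WT peaks. In cKO a single peak of 5773 bp, starting 4.05 kb from the start site, spanned that peak and the 2 WT peaks after it, with a −log10 q of 59.9, higher than 99.9% of cKO peaks. The beginning of the gene stayed outside peaks in both libraries, as the first peak began 2.01 kb (WT) and 1.98 kb (cKO) from the start site, in intron 2 of 12. The difference over the whole gene was 22.5 points. Once peaks within 3 kb were joined, coverage was 79.9% in WT and 80.2% in cKO, a difference of 0.310 points that missed the rule. When only the strongest cKO peaks were kept, up to the covered length of the WT list, the difference was 6.55 points and also missed it. The 3' part of Ptbp1 overlaps Plppr3 (79860475 to 79874958), and ChIP-seq does not tell which gene's transcription a peak there belongs to. Peaks went on past the gene end into Plppr3 in both libraries.

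Ptbp2 (chromosome 3, 119718741 to 119784647, minus strand), the paralogue that follows PTBP1 during neuronal differentiation, carried many small, separate peaks. WT had 6 peaks of 153 to 260 bp, spread from intron 3 to intron 11 of 13, covering 1.88% of the gene. In cKO 21 peaks of 185 to 771 bp covered 9.42%, a difference of 7.54 points that missed the rule. Of the 6 WT peaks, 5 were overlapped by a cKO peak. The other, in intron 4 (119752115 to 119752311), was the 1 WT peak of the 25 named peaks without a cKO partner. Intron 8, with no WT peak, held 6 cKO peaks. The strongest of the 21, in intron 3 and intron 7, had −log10 q values of 14.9, and the WT peak inside the same stretch of intron 3 was the strongest in WT, at 11.1. Another cKO peak lay just past the 3' end. Joining peaks within 3 kb gave 2.15% in WT and 43.8% in cKO, a difference of 41.7 points, past the rule. With the shortened cKO list no peak remained in Ptbp2, and the value was −1.88 points, its WT coverage with a minus sign.

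**Figure D3:**
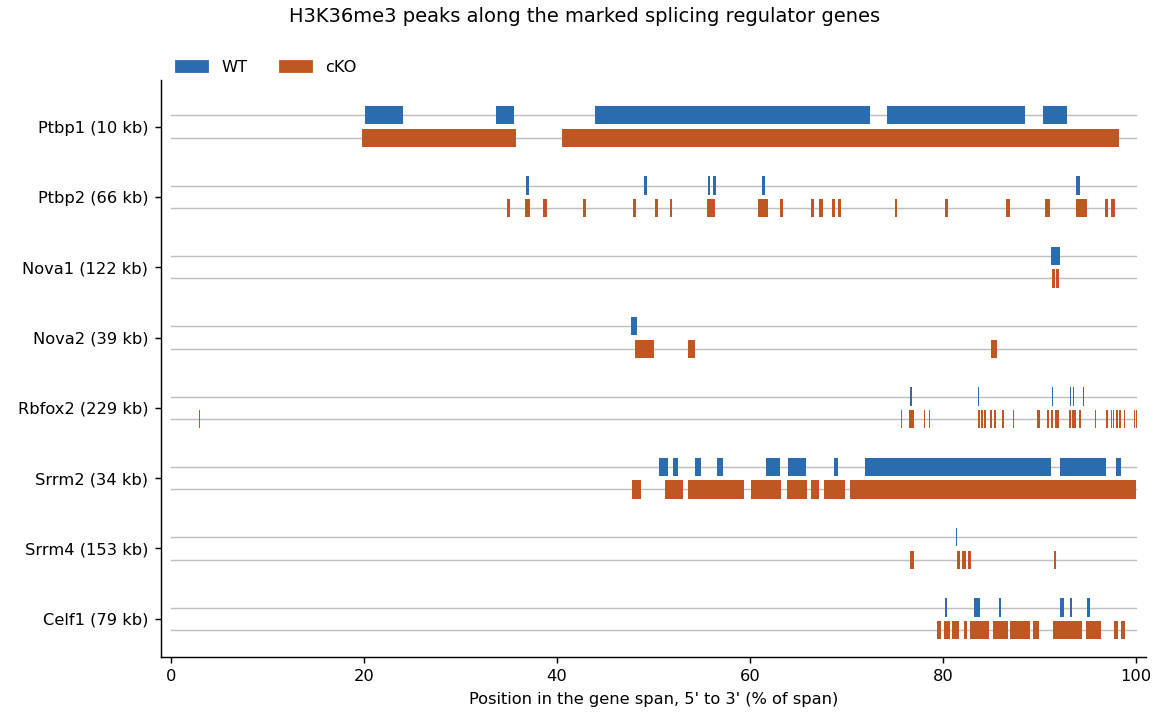
H3K36me3 peaks along the 8 marked genes, each drawn from its 5' end (0%) to its 3' end (100%), with WT in blue above cKO in orange. Very narrow peaks are drawn at a minimum width. Ptbp1 and Srrm2 carry broad blocks, Ptbp2 carries scattered short peaks, and the peaks of Celf1, Rbfox2, Srrm4 and Nova1 lie near the 3' end, apart from 1 cKO peak of Rbfox2.

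Nova1 and Nova2 encode KH-domain proteins that bind YCAY motifs and control exons of synaptic genes in neurons, and both were sparsely marked. Nova2 (chromosome 7, 18925888 to 18965319) had 1 WT peak of 243 bp in intron 2 of 3, 18.8 kb from the start site. Its −log10 q of 4.28 was higher than only 7.06% of WT peaks. In cKO a peak of 742 bp overlapped it, and 2 further peaks named for Gm26821 lay over the gene, 1 of them over exon 4 of 4. Coverage of Nova2 was 0.616% in WT and 3.11% in cKO.

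Nova1 (chromosome 12, 46697895 to 46819480) was the 1 gene of the 10 with lower coverage in cKO, 0.900% in WT against 0.575%. A fall of any size was found in 136 of 16853 genes (0.807%), and only the 6400 marked in WT could show one. All of its signal came from a single place in intron 4 of 4, at 91.2% of the span from the start site. The WT peak there (46707531 to 46708624) was 1094 bp wide, with 68 tags at the summit, an 11.2-fold enrichment and a −log10 q of 45.9, rank 35 of 36820. In cKO 2 peaks of 307 and 392 bp replaced it, with 102 and 114 tags at the summit but folds of only 2.19 and 1.88 over the local background. That background, recovered from pileup and fold for peaks called against input, was 46.1 and 60.2 tags in cKO. These values were 14.1 and 18.5 times the genome background of 3.26 tags. In WT the local background was 5.18 tags, 1.99 times the genome background of 2.60 tags. Local backgrounds this far above the genome background were found at 10 of the 95750 cKO peaks. At the other 80 cKO peaks over the splicing regulator genes the ratio was 1.00 to 2.60. In WT, a ratio at least as high as that of the Nova1 peak was found at 581 of 36820 peaks (1.58%). Summit tags, fold and local background all differed between the libraries at this place. Their part in the Nova1 difference was not tested. No cKO peak of Nova1 was left at a fold of at least 4.

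**Figure D4:**
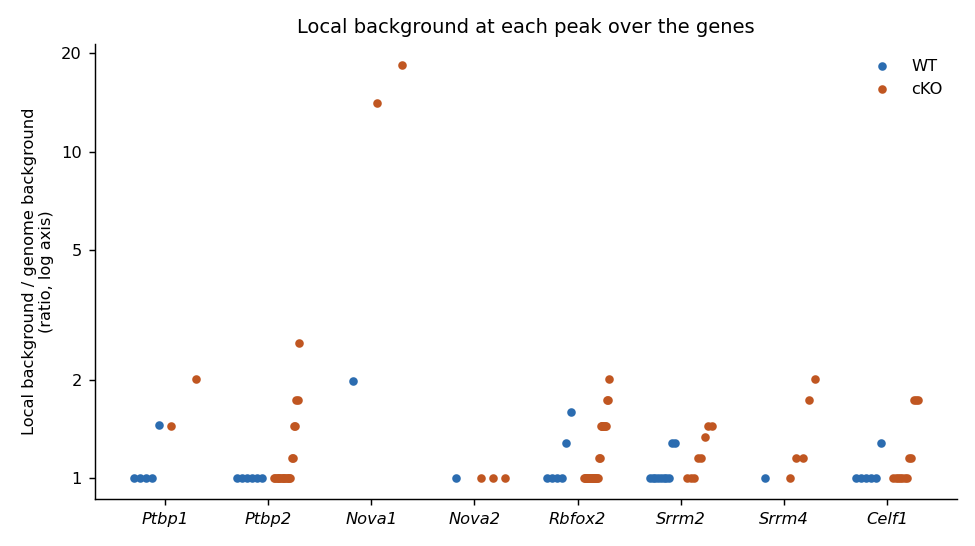
Local background at each peak over the 8 marked genes, divided by the genome background of its library (ratio, log axis), with 1 point per peak, WT in blue and cKO in orange. The 2 cKO peaks of Nova1, at 14.1 and 18.5, stand apart from all others, which lie at 2.60 or below.

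The RBFOX proteins bind GCAUG in introns and regulate exons of brain and muscle. Rbfox1 (chromosome 16, 5884793 to 7412480), the longest member and a gene of mature neurons and muscle, had no peak anywhere in its span in either library. Rbfox2 (chromosome 15, 77078990 to 77308434, minus strand), the more widely expressed paralogue, was marked in both. Only 1 WT and 5 cKO peaks carried its name. Another 5 WT and 24 cKO peaks over the gene were named for 1700109K24Rik, a lncRNA gene (77084398 to 77096314) that lies inside Rbfox2. Counting all of them, 6 WT peaks covered 0.682% and 29 cKO peaks covered 5.03% of the gene. Of the 6 WT peaks, 5 had a cKO partner. All WT peaks lay at 76.6% of the span or further from the start. The strongest of them, in intron 10 of 13, had 20 tags at the summit and a −log10 q of 8.61. In cKO 28 of the 29 peaks lay at 75.7% of the span or further. The exception was a weak peak of 210 bp in intron 1 of 12, 6.63 kb from the 5' end, with a −log10 q of 6.03. The strongest cKO peak, 328 bp in intron 3, had 34 tags at the summit and a −log10 q of 20.5. The cKO peaks included 3 over exon 13 of 13, and peaks of both libraries lay past the 3' end. With joined peaks the difference rose from 4.35 to 13.8 points, past the rule. The shortened cKO list held none of its peaks, which gave −0.682 points.

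SRRM2 is a large serine- and arginine-rich protein of the spliceosome and of nuclear speckles, and SRRM4 is its neural relative that drives microexon inclusion. The 2 genes stood far apart. Srrm2 (chromosome 17, 23790527 to 23824741) had 10 WT peaks over 30.9% and 8 cKO peaks over 46.3% of its span. Its WT peak over exon 10 of 14 (23815126 to 23821708) was 6583 bp wide, the third widest of the 36820 WT peaks. In cKO 1 peak of 10808 bp (23814588 to 23825395) covered the same exon and ran 654 bp past the gene end, rank 42 by width and rank 23 by −log10 q (78.0) of 95750. Both of these peaks carried the name Mir5125, a microRNA gene near the 3' end, so the named peaks alone gave 5.95% and 13.7%, a difference of 7.75 points that missed the rule. The RefSeq span begins well upstream of the 2 listed start sites. Measured from the earlier of these (23803187), coverage was 49.1% in WT and 73.5% in cKO, close to that of Ptbp1. The difference was 15.4 points on the full span, 24.4 from that start site, 2.84 with peaks joined and 3.93 with the shortened cKO list. The last pair missed the rule. Upstream of the broad peak, WT had 7 peaks of 155 to 636 bp with 16 to 25 tags at the summit. The 7 cKO peaks there were 257 to 1992 bp wide with 19 to 63 tags.

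Srrm4 (chromosome 5, 116439268 to 116592562, minus strand) had a single WT peak of 169 bp, 124.7 kb from the 5' end, which covered 0.110% of the gene. In cKO 5 peaks of 239 to 680 bp covered 1.69%, all beyond 76.5% of the span, and 1 of them, over exon 8 of 13, overlapped the WT peak. In bases, 169 bp of WT and 2595 bp of cKO peaks lay over the gene, a ratio of 15.4, the largest of the 8 genes but built on 1 WT peak. The shortened cKO list held none of its peaks, which gave −0.110 points. The antisense transcript Srrm4os overlaps the 3' end of the gene (116438722 to 116465487), and the strand of transcription behind a peak is not known. Only the cKO peak at 116451991 to 116452229 lay within Srrm4os, while the WT peak and the other cKO peaks lay outside it.

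CELF1 and MBNL1 often act in opposite directions on the same developmentally regulated exons. Celf1 was marked in both libraries and Mbnl1 in neither. Celf1 (chromosome 2, 90940259 to 91019497) had 6 WT peaks over 2.00% and 12 cKO peaks over 13.7% of its span, and all 6 WT peaks had a cKO partner. Nothing lay in the first 62.9 kb in either library. WT peaks were 172 to 461 bp wide with 16 to 25 tags at the summit, and cKO peaks were 256 to 2418 bp wide with 17 to 55 tags. In the most 3' of 5 equal bins of the gene, coverage was 10.0% in WT and 66.6% in cKO, and all WT peaks lay there. The difference over the whole gene was 11.7 points. The strongest cKO peak, 1496 bp over exon 8 of 13, had a −log10 q of 40.0, higher than 99.0% of cKO peaks. With the shortened cKO list the difference turned to −0.115 points, and the call was lost. Mbnl1 (chromosome 3, 60472559 to 60629750) had no peak in either library.

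Peaks lay toward the 3' end of the span in most of the marked genes, and its start was nearly bare. With each gene cut into 5 equal bins from 5' (bin 1) to 3' (bin 5), coverage of bin 1 was 0 in WT in all 8 genes, and in cKO it was above 0 only in Ptbp1 (1.00%) and Rbfox2 (0.458%). Of 6302 genes marked in both libraries, the 5141 with a single strand in the promoter table served as background. Their mean coverage rose from 1.28% in bin 1 to 13.3% in bin 5 in WT, and from 7.69% to 49.5% in cKO. Bins 4 and 5 held all of the covered bases of Nova1, Srrm4 and Celf1 in both libraries, and 100% in WT and 98.2% in cKO for Rbfox2. The median over the 5141 genes was 71.1% in WT and 59.6% in cKO. Ptbp2 moved the other way from that median, with 38.2% of its covered bases there in WT and 65.7% in cKO. Its WT share rests on 6 small peaks that covered 1237 bp. In Ptbp1 this share was 57.2% in WT and 51.8% in cKO. In Srrm2 it was 91.5% and 81.6%, but the span of that gene begins 12.7 kb before its earliest listed start site, so its bin 1 lies wholly upstream of that site. Binned from the listed start, bins 4 and 5 of Srrm2 held 69.9% of the covered bases in WT and 54.4% in cKO, and bin 1 was covered to 0% and 7.33%. Nova2 also rose, with none of its covered bases in bins 4 and 5 in WT, where it had 1 peak, and 16.9% in cKO.

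**Figure D5:**
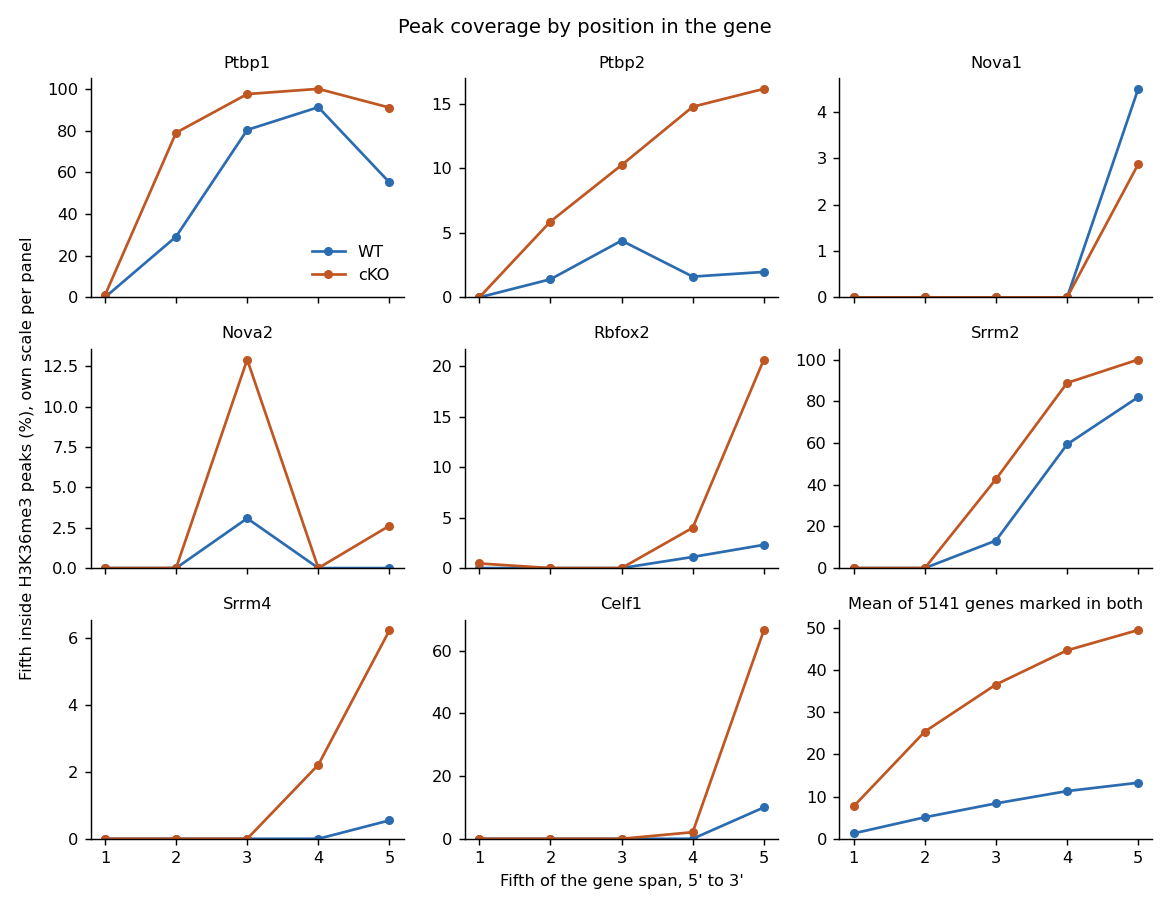
Share of each of 5 equal bins of the gene span inside peaks (%), from the 5' end (1) to the 3' end (5), in WT (blue) and cKO (orange), with its own vertical scale in each panel. The last panel gives the mean over the 5141 genes marked in both libraries that have a single strand in the promoter table, and the coverage of Celf1 in cKO rises from 2.11% in bin 4 to 66.6% in bin 5.

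Most peaks named for the 10 genes were intronic, 17 of 25 in WT (68.0%) and 41 of 55 in cKO (74.5%), beside 50.9% and 64.0% of all genic peaks. Exons held 4 WT and 9 cKO peaks, and transcription termination sites 3 and 4. The 1 peak per library classed as promoter-TSS was that of Ptbp1, and it began 3.37 kb (WT) and 4.05 kb (cKO) inside the gene. Of the 25 WT peaks, 24 (96.0%, exact Clopper-Pearson 95% interval 79.6 to 99.9%) were overlapped by a cKO peak, beside 96.5% of all genic WT peaks. A WT partner was found for 20 of the 55 cKO peaks (36.4%, 23.8 to 50.4%), beside 25.6% of all genic cKO peaks. Intervals cover counting error only, and peaks of the same gene are not independent.

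Among 11 other genes of the same protein families, 4 were marked in WT and 7 in cKO, 1 was called higher and 0 lower, and the median difference was 0.157 points. Over all genes of at least 5 kb, 38% were marked in WT, 52.1% in cKO and 32.6% called higher. The 3 largest differences were those of Srrm1, a splicing coactivator (22.7% in WT and 70.5% in cKO), Celf5 (0 and 3.91%) and Celf3 (11.5% and 14.6%). Rbfox3, which encodes the neuronal antigen NeuN, had no peak, like Srrm3, Celf6 and Mbnl3. Among 11 other RNA-binding regulators, 9 were marked in WT and 10 in cKO, with 2 called higher (beside the same 32.6%), 0 lower and a median difference of 3.75 points. The called genes were Elavl1, the broadly expressed HuR (9.73% and 46.1%), and Khdrbs1, which encodes SAM68 (19.1% and 48.4%), followed by Msi1, a progenitor RNA-binding protein (11.3% and 18.2%).

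Of 19 genes with exons known to be controlled by these regulators, 12 carried a WT peak and 13 a cKO peak, and 8 were called higher in cKO (beside 32.6% of all genes) and 0 lower, with a median difference of 3.85 points. The largest differences were those of Flna (filamin A, 13.7% and 67.7%), Rest (the repressor of neuronal genes, 6.01% and 51.2%) and Gabbr1 (a GABA-B receptor subunit, 8.75% and 52.5%). Of the 2 epithelial splicing regulators, Esrp1 had no peak and Esrp2 had 2.28% in WT and 25.9% in cKO. Thus 1 of 2 was called higher (beside 32.6% of all genes) and 0 lower.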

How the data were processed

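H3K36me3 ChIP and input DNA of each genotype were sequenced, 1 library each. Bowtie2 2.2.9 and the mm10 build are named in the submitters' processing notes. Peaks were called with MACS 2.1.1.20160309 against input, in narrow mode with a p cutoff of 1.00e-05, per the file headers. Per the file headers, MACS used fragments of 152 bp for WT but 185 bp for cKO. The deposited lists give the pileup signal at the summit, the fold enrichment over local background and −log10 p-values and q-values. The headers say that q-values were not calculated, yet the lists hold values in that column, and these are used as listed. Ranks and percentiles by −log10 q were taken within a list. In a stricter setting the same −log10 q cutoff of 5 was applied to both lists. The authors' annotation, made with a tool that no header or label names, was joined by position, after subtracting 1 bp from its starts.

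Coverage, the share of a RefSeq span (GRCm38.p6, protein-coding genes, at least 5 kb for calls) inside merged peaks, was computed with Python 3.11.15 and numpy 2.4.6 and checked on simulated peaks. Genes on the primary chromosomes entered, with 1 entry per symbol. Intervals on shares came from scipy 1.17.1. Strand came from the promoter table and, for Rbfox2, from intron numbers. Genes without a single strand in that table were left out of the bins and flanks. Local background was (pileup + 1) divided by fold, less 1. The genome background was the fragment length times the ChIP tags over the effective genome size of 1.87e+09 bp. Text names all 10 genes and, per list of splicing regulators and targets, the 3 largest differences and any gene called the other way, and genes named beyond these were chosen after their values were seen. Other settings tried were stricter peak lists, a cKO list cut to the WT number or covered length by q, joined peaks, named peaks only, a stricter overlap and, chosen after seeing the data, spans begun at listed start sites. The genes and lists were chosen with earlier results of these data known.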

Additional observations from a re-analysis of the deposited data

How the results depend on the processing

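Of the recomputed counts and shares over the 10 genes, 22 stayed within 1.5 times the reported count or inside the interval of the share, and 8 did not. The 22 include every setting for the count of genes called lower, which was 0 throughout. That call was rare in all genes, at most 0.113% except for 2.21% with the cKO list cut by length, so its stability says little. When the strongest cKO peaks were kept up to the covered length of WT, 4 cKO peaks named for the genes remained, 16.0% of the WT peaks had a cKO partner, and 0 genes were called higher, beside 4.81% of all genes higher and 2.21% lower. The difference of Celf1 then turned to −0.115 points. With the list reduced to the number of WT peaks, 23 cKO peaks remained. Joining peaks within 3 kb left 13 WT and 15 cKO domains, all WT domains (100%) overlapped. The count of 3 genes called higher was kept there with other genes, since Ptbp2, Rbfox2 and Celf1 passed the rule. A reciprocal overlap of 50% left 8.00% of WT peaks shared. For these altered shares (16.0%, 100% and 8.00%) the share over all genic WT peaks was not computed. The 96.5% given above belongs to the main setting alone, so they are not read as a trait of these genes. With named peaks alone, 2 genes were called higher, beside 24.1% of all genes. A −log10 q of at least 5 and a fold of at least 4 left the same count of 3. Starting spans at the listed start sites, tried after seeing the data, also gave 3, beside 32.8% of all genes. None of the 10 genes was called lower under any of these settings. No paired analysis was possible because each genotype had 1 ChIP library.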

Other observations

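Of the 8 marked splicing regulator genes, none had a peak within 3 kb upstream of its span in either library, beside 4.80% of 5209 marked genes in WT and 10.9% of 7146 in cKO. These are the marked genes of at least 5 kb that have a single strand in the promoter table. Within 3 kb downstream, 3 of 8 had a peak in WT (Ptbp1, Rbfox2 and Srrm2) and 5 of 8 in cKO (also Ptbp2 and Celf1), beside 26.2% and 53.2% of those marked genes. The region downstream of Ptbp1 lies in Plppr3 and that downstream of Srrm2 in Elob.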
